A study of Homo sapiens with 4 samples.

Results

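The aminoacyl-tRNA synthetases of HLE cells were compared between cells stably expressing CYR61 and cells stably carrying an empty vector. The set holds 35 listed genes of the 20286 gene identifiers in the deposited count tables, matched by gene symbol. The set was proposed with earlier results of these data known, so its counts of calls describe it and are no independent evidence. It was divided by name into 19 cytosolic or shared enzymes and 16 mitochondrial enzymes, whose symbols end in 2. All 35 passed the required mean of 1 CPM (counts scaled to a common library size, with TMM factors) over the 4 libraries, and all 35 were among the 12698 genes tested.

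HLE is an established human hepatocellular carcinoma line. The CYR61 group was 2 cultures with stable expression of CYR61, a secreted matrix-associated protein whose current symbol is CCN1, and the Vector group was 2 cultures with the vector alone. Both were grown in the same serum-supplemented medium and had no further treatment. The series text describes 1 whole stable population per construct with 2 independent cultures each, so p-values measure the spread between cultures and not between separately made populations.

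CCN1 stood at 8091 and 8620 CPM in CYR61 cultures, against 222 and 218 CPM in Vector cultures (38.0-fold, edgeR adjusted p 1.33e-08). The keratins KRT8 and KRT18 with VIM carried nearly all of a marker sum of 5692 to 6431 CPM in CYR61 cultures and 4943 to 5719 CPM in Vector cultures. KRT19, also on that list, had 0.0465 and 0.0 CPM in CYR61 cultures, against 0.0531 and 0.0906 CPM in Vector cultures. Of 7 hepatocyte markers 6 averaged under 1 CPM, of which ALB, APOB and TTR had no counts in any library. The hepatocyte transcription factor HNF4A was the 1 above it, with 3.81 and 3.57 CPM in CYR61 cultures, against 5.79 and 4.12 CPM in Vector cultures. Summed markers of leukocytes, nearly all CD68, were 48.1 to 53.3 CPM in CYR61 cultures and 62.7 to 67.2 CPM in Vector cultures. Those of fibroblasts were 34.1 to 35.9 CPM in CYR61 cultures and 37.6 to 45.8 CPM in Vector cultures. Of the fibroblast markers COL1A2 had a mean of 0.0113 CPM over the 4 libraries. Endothelial markers summed to 2.37 to 2.51 CPM in CYR61 cultures and 1.81 to 2.07 CPM in Vector cultures, and the part of these lists in the results was not tested. Libraries held 16186988 to 21588822 estimated counts. Within each group the replicates differed along gene GC content. Across 10378 genes of at least 5 CPM, which are not independent replicates, Spearman's rho with GC was -0.80 for CYR61 1 minus CYR61 2 and 0.75 for Vector 1 minus Vector 2, and -0.18 for the log2 fold change between groups.

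Aminoacyl-tRNA synthetases join each amino acid to its own tRNA, and so supply the ribosome with charged tRNA. Human cells hold separate nuclear genes for most cytosolic and mitochondrial enzymes, while GARS1 and KARS1 make both forms. Some cytosolic enzymes sit in a multi-synthetase complex with the scaffold proteins AIMP1, AIMP2 and EEF1E1. Transcription factor ATF4, whose synthesis rises when amino acids run short or the endoplasmic reticulum is stressed, is known to switch on many cytosolic synthetase genes, and uncharged tRNA is what the kinase EIF2AK4 (GCN2) senses upstream of it.

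The cytosolic enzymes split in direction. In bulk libraries fewer cells with a transcript and less of it per cell cannot be told apart. Of 19, 7 fell in CYR61 cells (CARS1, GARS1, AARS1, MARS1, YARS1, SARS1 and WARS1), 3 rose (RARS1, FARSA and KARS1) and 9 did not pass the test, by edgeR's quasi-likelihood test at a Benjamini-Hochberg adjusted p below 0.05. Those that fell were 36.8% and those that rose 15.8% of the cytosolic enzymes, against 4.56% and 1.83% of all tested genes. The median log2 fold change (CYR61 minus Vector) was -0.30 over the cytosolic enzymes and -0.0057 over all tested genes. The CPM ranges of both groups were apart, with CYR61 lower, for 11 of the 19 (57.9%), where the share over all tested genes was 27.7%. They were apart with CYR61 higher for 4 of the 19 (21.1%), where the share over all tested genes was 23.9%.

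Among the mitochondrial enzymes only EARS2 was called higher, 15 did not pass and 0 fell in the edgeR test. DESeq2 likewise called 1 higher and 0 lower, beside 356 higher and 589 lower over all genes. By unadjusted p below 0.05, 3 were higher and 0 lower, and the share of all tested genes at that cut was not counted. The share of mitochondrial enzymes called higher by edgeR was 6.25%, and their median log2 fold change was 0.21. CPM ranges were apart with CYR61 higher for 11 of the 16 (68.8%) and with CYR61 lower for 2 (12.5%), beside the 23.9% and 27.7% of all tested genes. The cytosolic enzymes thus leaned lower and the mitochondrial ones leaned higher, most of the mitochondrial ones by less than the test could call.

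**Figure D1:**
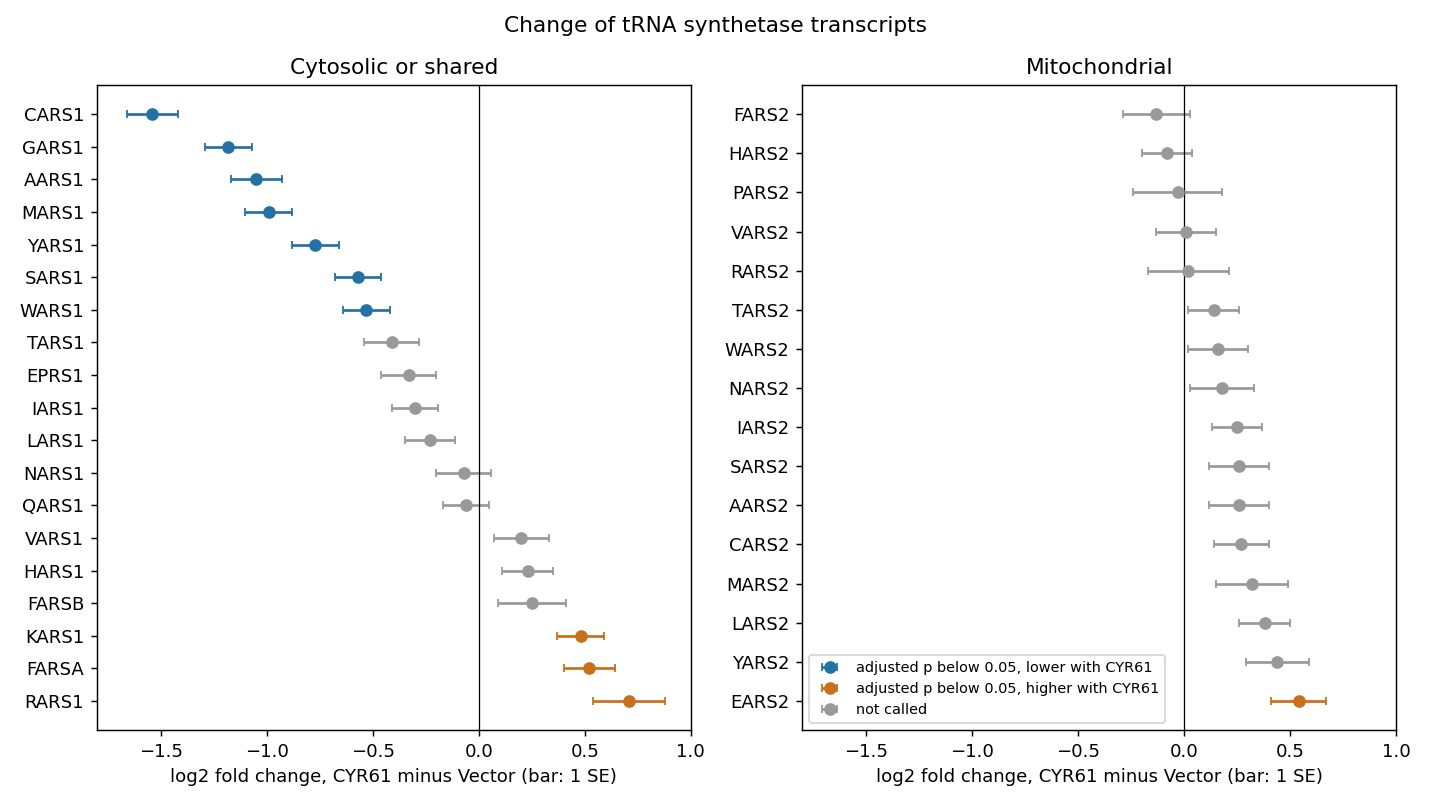
Log2 fold change (CYR61 minus Vector) of each of the 35 synthetases with its standard error, cytosolic or shared enzymes in the left panel and mitochondrial enzymes in the right, blue where called lower, orange where called higher and grey where not called. Values run between -1.54 for CARS1 and 0.71 for RARS1, and the 7 called lower are all cytosolic or shared enzymes.

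CARS1, on chromosome 11 (GRCh38, 3000922 to 3057613, minus strand), charges tRNA with cysteine. It had 71.3 and 64.4 CPM in CYR61 cultures, against 197 and 199 CPM in Vector cultures. It was 2.92 times lower in CYR61 cells (log2 fold change -1.54, SE 0.12, adjusted p 0.000103), the lowest fold change of the 35, and both groups lay far apart. GARS1, on chromosome 7 (30594681 to 30634033, plus strand), makes the glycine enzyme of cytosol and mitochondria. It had 227 and 227 CPM in CYR61 cultures, against 485 and 543.5 CPM in Vector cultures. It was 2.27 times lower (-1.18, SE 0.11, adjusted p 0.000365), and the CYR61 cultures were nearly equal while the Vector cultures differed by more.

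AARS1, on chromosome 16 (70252295 to 70289543, minus strand), is the alanine enzyme. It had 207.5 and 235 CPM in CYR61 cultures, against 473 and 445 CPM in Vector cultures, which is 2.07 times lower (-1.05, SE 0.12, adjusted p 0.000831). MARS1, on chromosome 12 (57475445 to 57517569, plus strand), supplies methionyl-tRNA for elongation and initiation and belongs to the complex. It had 132 and 147 CPM in CYR61 cultures, against 282 and 272 CPM in Vector cultures, which is 1.99 times lower (-0.99, SE 0.11, adjusted p 0.00113). In both genes each Vector culture held well over the level of either CYR61 culture.

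YARS1, on chromosome 1 (32775237 to 32818153, minus strand), is the tyrosine enzyme. It had 191 and 191 CPM in CYR61 cultures, against 324 and 326 CPM in Vector cultures, which is 1.70 times lower (-0.77, SE 0.11, adjusted p 0.00262). SARS1, on chromosome 1 (109213918 to 109238169, plus strand), charges serine tRNA and also the tRNA used for selenocysteine. It had 189 and 190.0 CPM in CYR61 cultures, against 281 and 281 CPM in Vector cultures, which is 1.48 times lower (-0.57, SE 0.11, adjusted p 0.0124). WARS1, on chromosome 14 (100333788 to 100376805, minus strand), is the tryptophan enzyme and is also known as an interferon-induced gene. It had 267 and 268 CPM in CYR61 cultures, against 387 and 384 CPM in Vector cultures, which is 1.44 times lower (-0.53, SE 0.11, adjusted p 0.017). In these 3 genes the replicates of each group lay within 3 CPM of each other.

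Calls of CARS1, GARS1, AARS1, MARS1 and YARS1 were kept under all 13 alternative settings. The other called members lost their call in 3 or 4 settings each, of which the replicate number as a block, common to all of them, is given with the processing alternatives. SARS1 was no longer called without Vector 1 (adjusted p 0.0578) or without Vector 2 (0.0665). WARS1 was no longer called without Vector 1 (0.0883), Vector 2 (0.0889) or CYR61 1 (0.0747), while its log2 fold change stayed between -0.54 and -0.51. The 7 lower enzymes together held 1285 and 1323 CPM in CYR61 cultures, against 2428.5 and 2451 CPM in Vector cultures. That was 29.3% and 31.1% of the cytosolic total in CYR61 cultures, against 44.9% and 44.2% in Vector cultures. The other 12 cytosolic enzymes summed to 3097 and 2929 CPM in CYR61 cultures, against 2986 and 3099 CPM in Vector cultures, so the ranges of both groups overlapped. These sums describe a choice made on the same contrast and carry no test.

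**Figure D2:**
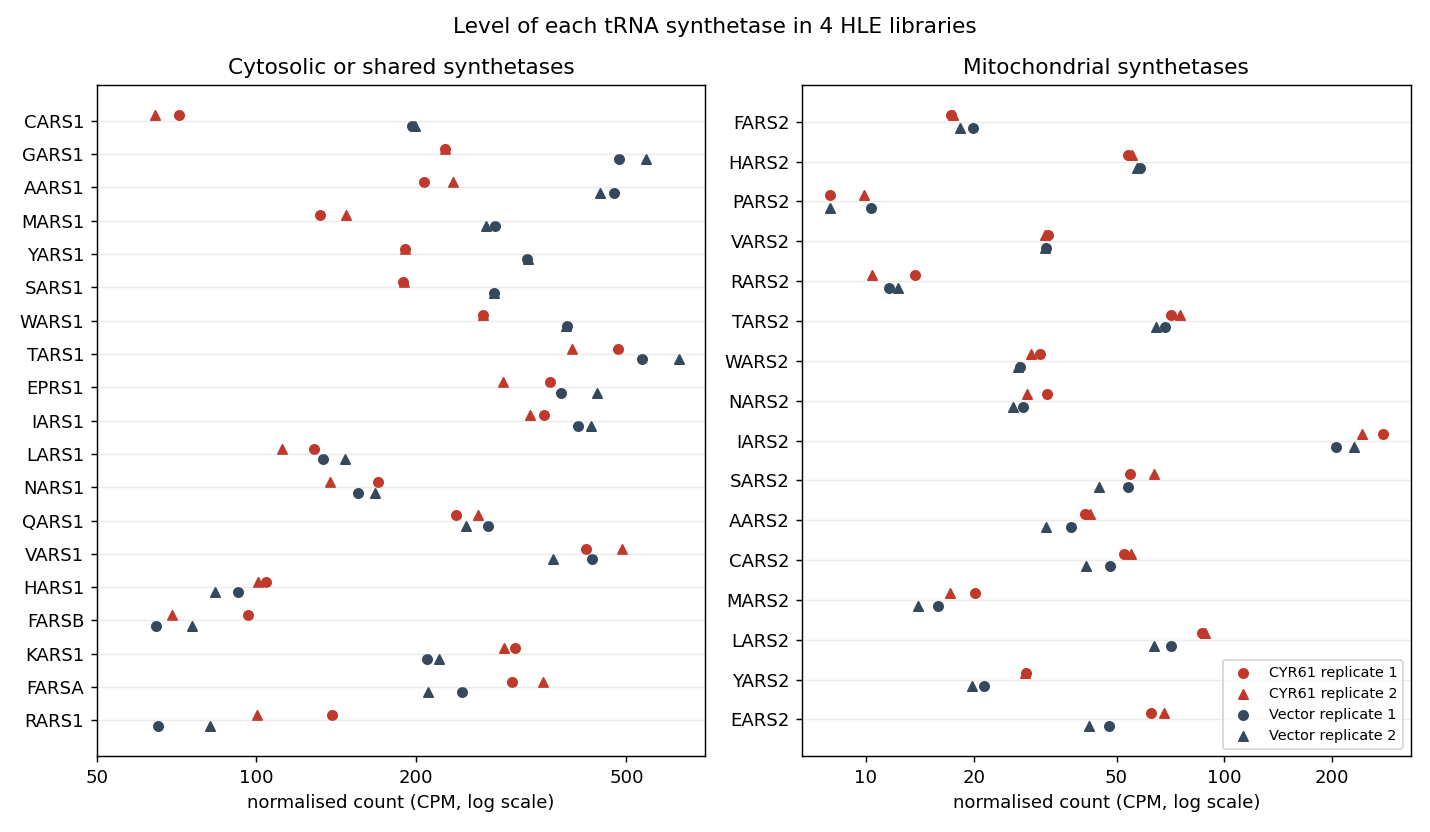
CPM of each synthetase in each of the 4 cultures on a log axis, CYR61 cultures and Vector cultures in separate colours. CARS1 shows the widest gap, with CYR61 cultures at 71.3 and 64.4 CPM and Vector cultures at 197 and 199 CPM, whereas QARS1 and NARS1 overlap.

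Of the cytosolic enzymes that rose, RARS1 on chromosome 5 (168486445 to 168519299, plus strand) is the arginine enzyme of the complex. It had 139 and 100.4 CPM in CYR61 cultures, against 65.2 and 81.8 CPM in Vector cultures, and was 1.63-fold higher (log2 fold change 0.71, SE 0.17, adjusted p 0.0376). The groups did not overlap but the spread within each was wide, and, beside the block, the call was lost without Vector 1 (0.129), without CYR61 1 (0.127) and with library size alone (0.0796). FARSA on chromosome 19 (12922479 to 12934037, minus strand) encodes the catalytic subunit of the phenylalanine enzyme. It had 304 and 348 CPM in CYR61 cultures, against 245 and 211 CPM in Vector cultures, and was 1.43-fold higher (0.52, SE 0.12, adjusted p 0.0359), a call lost without Vector 2 (0.25) or CYR61 2 (0.107).

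KARS1 on chromosome 16 (75627474 to 75648643, minus strand) makes the lysine enzyme of cytosol and mitochondria. It had 308 and 293 CPM in CYR61 cultures, against 210.1 and 221 CPM in Vector cultures, and was 1.39-fold higher (0.48, SE 0.11, adjusted p 0.0284). Its groups stood well apart, and the call was lost without Vector 1 (0.221), Vector 2 (0.115) or CYR61 1 (0.113). KARS1 and GARS1, both of which serve cytosol and mitochondria, were thus called in opposite directions. FARSB, the other subunit of the phenylalanine enzyme, had 96.5 and 69.3 CPM in CYR61 cultures, against 64.5 and 75.5 CPM in Vector cultures (0.25, adjusted p 0.411), and its groups overlapped.

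Besides MARS1, RARS1 and KARS1, 4 enzymes of the complex were measured. EPRS1, which carries the glutamate and the proline enzyme in 1 protein, had 358 and 292.5 CPM in CYR61 cultures, against 376 and 441 CPM in Vector cultures (-0.33, SE 0.13, adjusted p 0.174). IARS1, the isoleucine enzyme, had 349.5 and 329 CPM in CYR61 cultures, against 404 and 429 CPM in Vector cultures (-0.30, SE 0.11, adjusted p 0.131). LARS1, the leucine enzyme and a leucine sensor for the kinase mTOR, had 128.5 and 112 CPM in CYR61 cultures, against 134 and 147 CPM in Vector cultures (-0.23, SE 0.12, adjusted p 0.302). All 3 had lower values in both CYR61 cultures without passing the test. QARS1, the glutamine enzyme, had 238 and 262.5 CPM in CYR61 cultures, against 274 and 249 CPM in Vector cultures (-0.06, adjusted p 0.79), which overlapped.

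Over the 7 measured enzymes of the complex, 1 fell, 2 rose and 4 did not pass, with a median log2 fold change of -0.23. Over the 12 enzymes outside it, 6 fell, 1 rose and 5 did not pass, with a median of -0.47. The shares over all tested genes were 4.56% lower and 1.83% higher, and the difference between the counts inside and outside the complex was not tested. Summed levels were 1654 and 1537 CPM in CYR61 cultures, against 1746 and 1841 CPM in Vector cultures, for the complex. For the enzymes outside it they were 2728 and 2716 CPM in CYR61 cultures, against 3669 and 3709 CPM in Vector cultures. The ratio of group means was 0.889 for the complex and 0.738 outside it, and the difference between these ratios was not tested. Of the scaffolds, AIMP2 was called higher, with 102 and 99.9 CPM in CYR61 cultures, against 73.1 and 70.2 CPM in Vector cultures (0.49, SE 0.12, adjusted p 0.0331), a call lost without Vector 1 (0.169), Vector 2 (0.218) or CYR61 1 (0.0932). AIMP1 (0.22, adjusted p 0.473) and EEF1E1 (0.25, adjusted p 0.368) did not pass.

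The remaining enzymes outside the complex did not pass the test. TARS1, the threonine enzyme, had 481 and 394 CPM in CYR61 cultures, against 535 and 628.5 CPM in Vector cultures (-0.41, SE 0.13, adjusted p 0.0968). It became called without the filter on low counts (-0.41, edgeR adjusted p 0.012), and its log2 fold change was -0.55 without CYR61 1. NARS1, the asparagine enzyme, had 169.5 and 138 CPM in CYR61 cultures, against 155 and 167 CPM in Vector cultures (-0.07, adjusted p 0.797). The TARS1 groups were apart while those of NARS1 overlapped. VARS1, the valine enzyme, which binds the elongation factor complex, had 420 and 490.3 CPM in CYR61 cultures, against 430 and 364 CPM in Vector cultures (0.20, adjusted p 0.397). HARS1, the histidine enzyme, had 104.5 and 101 CPM in CYR61 cultures, against 92.3 and 83.4 CPM in Vector cultures (0.23, adjusted p 0.289), so its groups were apart and those of VARS1 were not.

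Synthetases fall into classes I and II by the structure of the catalytic domain, and each class held genes that fell and genes that rose. Of 9 cytosolic class I enzymes 4 fell and 1 rose, and of 9 class II enzymes 3 fell and 2 rose, EPRS1 having a domain of each. Beside these counts, 4.56% of all tested genes fell and 1.83% rose. Among members, as a description, Spearman's rho of log2 fold change with GC was -0.19 over the 19 cytosolic and 0.08 over the 16 mitochondrial genes, and with level per kb -0.07 and 0.34, all from the same 4 libraries. The 7 lower genes had 47.4% to 53.4% GC, in the middle of the 40.9% to 61.6% of the cytosolic genes.

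Levels were compared between genes per kb of merged exons, which join all annotated exons of a gene and can exceed the length of its transcripts. In CYR61 cells FARSA stood first at a mean of 134 CPM per kb, followed by TARS1 at 76.5, VARS1 at 74.8 and KARS1 at 73.9 CPM per kb, 3 neighbours that lie within their spread. In Vector cells GARS1 stood first at 124 CPM per kb, followed by AARS1 at 102, TARS1 at 102 and FARSA at 93.5 CPM per kb. CARS1 was the lowest cytosolic enzyme in CYR61 cells, at 6.76 CPM per kb, whereas HARS1 was lowest in Vector cells, at 11.2 CPM per kb. The merged exons of CARS1 and HARS1 span 10037 and 7853 bases, so these ranks depend on the length used. The mitochondrial median was 9.57 CPM per kb in CYR61 cells and 7.93 CPM per kb in Vector cells, and the cytosolic median 45.8 CPM per kb in CYR61 cells and 55.6 CPM per kb in Vector cells.

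Promoter windows show where the letters of an ATF4 response element lie in these genes. The RefSeq table (GRCh38.p14, 250 bases before to 50 bases after a gene's start) held 39 windows for 30 of the 35 members. LARS1, YARS1, VARS1, AARS2 and VARS2 had none. Both strands were searched for TGATGNAA, the core of the combined C/EBP and ATF element. It occurred in 7 of 21 cytosolic windows (33.3%), 1 of 18 mitochondrial windows (5.56%, YARS2) and 3.62% of all 35116 promoter windows. Of the 6 lower genes with a window, CARS1, GARS1, AARS1 and MARS1 held a match and SARS1 and WARS1 did not. None of the 3 windows of the genes that rose held one, while the not called IARS1, NARS1 and TARS1 did. The windows of the 4 lower genes with a match are printed with that of RARS1, which rose and holds none, 5′ to 3′ along the gene, the capitals marking the match. CARS1 is at chr11:3057374-3057673 (minus strand), GARS1 at chr7:30594628-30594927 (plus), AARS1 at chr16:70289457-70289756 (minus), MARS1 at chr12:57487818-57488117 (plus) and RARS1 at chr5:168486221-168486520 (plus).
CARS1: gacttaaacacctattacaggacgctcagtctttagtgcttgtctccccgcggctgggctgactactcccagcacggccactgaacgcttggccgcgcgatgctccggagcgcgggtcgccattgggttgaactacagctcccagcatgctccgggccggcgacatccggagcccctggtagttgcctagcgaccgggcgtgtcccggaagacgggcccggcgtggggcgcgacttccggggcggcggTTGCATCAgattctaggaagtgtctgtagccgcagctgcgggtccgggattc
GARS1: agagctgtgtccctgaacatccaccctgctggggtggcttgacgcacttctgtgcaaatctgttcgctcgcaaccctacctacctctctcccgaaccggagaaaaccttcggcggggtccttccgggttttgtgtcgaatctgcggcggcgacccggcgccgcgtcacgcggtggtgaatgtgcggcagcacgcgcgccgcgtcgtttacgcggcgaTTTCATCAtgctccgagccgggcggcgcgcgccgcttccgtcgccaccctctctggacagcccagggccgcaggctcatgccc
AARS1: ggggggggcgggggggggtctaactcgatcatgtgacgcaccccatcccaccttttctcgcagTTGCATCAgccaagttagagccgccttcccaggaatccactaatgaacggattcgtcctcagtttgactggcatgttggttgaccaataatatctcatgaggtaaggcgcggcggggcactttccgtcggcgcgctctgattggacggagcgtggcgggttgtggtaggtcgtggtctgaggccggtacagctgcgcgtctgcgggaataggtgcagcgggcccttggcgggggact
MARS1: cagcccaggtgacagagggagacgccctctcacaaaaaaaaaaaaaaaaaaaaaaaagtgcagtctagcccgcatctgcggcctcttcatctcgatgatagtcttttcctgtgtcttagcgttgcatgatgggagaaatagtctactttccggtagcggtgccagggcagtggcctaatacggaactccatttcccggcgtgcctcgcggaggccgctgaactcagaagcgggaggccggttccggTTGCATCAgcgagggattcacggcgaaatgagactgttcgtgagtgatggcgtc
RARS1: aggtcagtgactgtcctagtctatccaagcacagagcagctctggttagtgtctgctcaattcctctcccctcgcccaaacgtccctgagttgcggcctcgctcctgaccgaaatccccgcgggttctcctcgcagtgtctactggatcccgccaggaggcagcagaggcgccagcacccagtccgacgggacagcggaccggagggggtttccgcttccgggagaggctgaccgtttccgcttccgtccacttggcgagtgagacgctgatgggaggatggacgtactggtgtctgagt

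In CARS1 and MARS1 the match began 2 and 4 bases before the annotated gene start of the window that holds it, in GARS1 33 and in AARS1 187 bases before it. CARS1, GARS1 and TARS1 have 2 windows each, with different starts. Only the first window of CARS1 and only the second of GARS1 and of TARS1 hold the match. CARS1, AARS1 and MARS1 carry the same 8 letters, TTGCATCA, on the gene's strand, which is the reverse complement of TGATGCAA, and GARS1 carries TTTCATCA. The 3 not called genes with a match carry TTGCATCA or TGATGCAA near the start too, as these stretches of 60 bases show, at chr5:33440941-33441000 (plus strand) for TARS1, chr9:92293677-92293736 (minus) for IARS1 and chr18:57621789-57621848 (minus) for NARS1.
TARS1: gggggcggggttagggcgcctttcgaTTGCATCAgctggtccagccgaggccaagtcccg
IARS1: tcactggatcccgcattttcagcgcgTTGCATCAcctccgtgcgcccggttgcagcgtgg
NARS1: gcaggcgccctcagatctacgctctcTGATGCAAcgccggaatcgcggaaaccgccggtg
The letters thus occurred in 4 of 10 windows (4 of 6 genes) of the lower group and in 3 of 8 windows (3 of 7 genes) of the not called group. Of the not called genes with a match, TARS1 (-0.41) and IARS1 (-0.30) were lower in both CYR61 cultures, and NARS1 (-0.07) overlapped. Whether a match goes with the change was not tested. GCATGCGC, the core of the site of NRF1, a regulator of nuclear genes for mitochondria, occurred in 2 of 18 mitochondrial windows (MARS2 and YARS2), 0 of 21 cytosolic windows and 3.05% of all windows. CCAAT, the box bound by NF-Y, occurred in 11 of 18 mitochondrial windows (61.1%), 9 of 21 cytosolic windows (42.9%) and 34.6% of all windows. CCAAT and TGATGNAA matches may lie in the same window, and a match is a description and not a bound site.

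EARS2, on chromosome 16 (23522014 to 23557731, minus strand), charges mitochondrial glutamate tRNA. It had 62.5 and 67.9 CPM in CYR61 cultures, against 47.5 and 41.9 CPM in Vector cultures, and was 1.46-fold higher (log2 fold change 0.54, SE 0.13, adjusted p 0.0376). The groups were apart, and the call was lost without Vector 1 (0.0867), Vector 2 (0.258) or CYR61 2 (0.0787). YARS2, the tyrosine enzyme, had 27.9 and 27.8 CPM in CYR61 cultures, against 21.4 and 19.8 CPM in Vector cultures (0.44, SE 0.15, adjusted p 0.108). LARS2, the leucine enzyme, had 86.5 and 88.1 CPM in CYR61 cultures, against 71.0 and 63.6 CPM in Vector cultures (0.38, SE 0.12, adjusted p 0.0971). Both had higher values in each CYR61 culture without passing the test.

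A further 8 mitochondrial enzymes lay higher in both CYR61 cultures than in either Vector culture, with log2 fold changes of 0.14 to 0.32 and no call. MARS2, which makes the methionyl-tRNA that is formylated for initiation, had 20.1 and 17.1 CPM in CYR61 cultures, against 15.9 and 14.0 CPM in Vector cultures. IARS2, for isoleucine, was the most abundant mitochondrial enzyme, with 277 and 241 CPM in CYR61 cultures, against 205 and 229.8 CPM in Vector cultures. SARS2, for serine, had 54.5 and 63.5 CPM in CYR61 cultures, against 53.8 and 44.6 CPM in Vector cultures. The SARS2 gap between the nearest cultures was under 1 CPM, as was that of NARS2, so being apart says little for either gene. CARS2 for cysteine (52.3 and 54.9 CPM in CYR61 cultures, against 47.8 and 41.0 CPM in Vector cultures) and AARS2 for alanine (40.7 and 42.2 CPM in CYR61 cultures, against 37.4 and 31.8 CPM in Vector cultures) had log2 fold changes of 0.27 and 0.26. TARS2 for threonine (71.1 and 75.2 CPM in CYR61 cultures, against 68.2 and 64.4 CPM in Vector cultures), NARS2 for asparagine (31.9 and 28.1 CPM in CYR61 cultures, against 27.4 and 25.7 CPM in Vector cultures) and WARS2 for tryptophan (30.5 and 28.9 CPM in CYR61 cultures, against 26.9 and 26.5 CPM in Vector cultures) had 0.14, 0.18 and 0.16.

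The other 5 mitochondrial enzymes lay near 0. FARS2, for phenylalanine, had 17.3 and 17.5 CPM in CYR61 cultures, against 19.9 and 18.3 CPM in Vector cultures (-0.13). HARS2, for histidine, had 53.8 and 55.3 CPM in CYR61 cultures, against 58.1 and 57.0 CPM in Vector cultures (-0.08), and these 2 were the mitochondrial genes whose CYR61 cultures both lay lower. PARS2 for proline had 7.95 and 9.9 CPM in CYR61 cultures, against 10.3 and 7.93 CPM in Vector cultures, with an SE of 0.21. Its CPM, not divided by length, was the lowest of the mitochondrial enzymes. RARS2 for arginine (13.7 and 10.4 CPM in CYR61 cultures, against 11.6 and 12.3 CPM in Vector cultures) and VARS2 for valine (32.2 and 31.6 CPM in CYR61 cultures, against 31.7 and 31.5 CPM in Vector cultures) had log2 fold changes of 0.02 and 0.01, with overlapping groups.

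Summed over the 16 mitochondrial enzymes the level was 879 and 860 CPM in CYR61 cultures, against 754 and 730.0 CPM in Vector cultures (ratio of means 1.17). Summed over the 19 cytosolic enzymes it was 4382 and 4252.5 CPM in CYR61 cultures, against 5414.5 and 5550 CPM in Vector cultures (ratio of means 0.787). Per kb, the cytosolic sum was 4.34 and 4.36 times the mitochondrial sum in CYR61 cultures, against 5.95 and 6.26 times in Vector cultures. The groups were apart in each of these quantities, by more than the gap between replicates. With 2 cultures against 2 an exact permutation test cannot give a two-sided p under 0.333, so no test was made of sums or ratios.

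**Figure D3:**
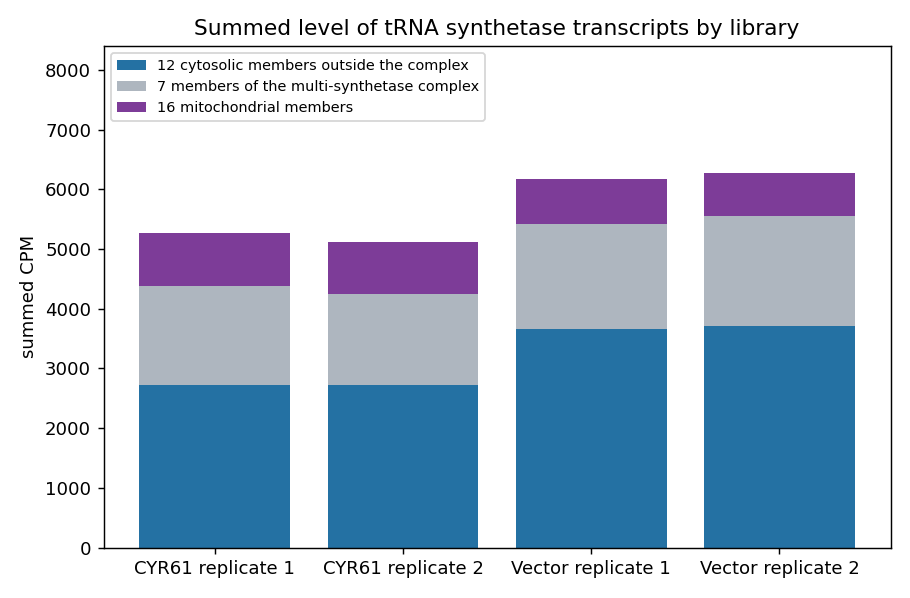
Summed CPM of the synthetases in each culture as stacked bars, with enzymes outside the complex at the bottom, those of the complex in the middle and mitochondrial enzymes on top, CYR61 cultures left of Vector cultures. The cytosolic sums, the lower pair of segments, are 4382 and 4252.5 CPM in CYR61 cultures and 5414.5 and 5550 CPM in Vector cultures, and the mitochondrial sums 879 and 860 CPM in CYR61 cultures and 754 and 730.0 CPM in Vector cultures.

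Cytosolic and mitochondrial enzymes of the same amino acid could be set side by side in 17 pairs, in which FARS2 and EPRS1 each occur in 2. The cytosolic fold change was below the mitochondrial one in 12 pairs and above it in 5. The ratio of cytosolic to mitochondrial CPM per kb was lower in both CYR61 cultures than in either Vector culture in 11 pairs, higher in 3, and overlapped in 3. The share of ratios apart over other gene pairs was not counted. The pairs reuse the members already counted above, so these counts are no separate evidence. For cysteine, CARS1 over CARS2 was 1.42 and 1.22 in CYR61 cultures, against 4.29 and 5.07 in Vector cultures. For alanine the ratio was 4.88 and 5.32 in CYR61 cultures, against 12.1 and 13.4 in Vector cultures. For methionine it was 2.82 and 3.7 in CYR61 cultures, against 7.6 and 8.32 in Vector cultures. These ratios, and that of tyrosine (1.79 and 1.8 in CYR61 cultures, against 3.97 and 4.33 in Vector cultures), moved mainly with the cytosolic gene, which fell while its partner was not called.

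For isoleucine the order of the pair per kb differed between groups, with IARS1 over IARS2 at 0.711 and 0.768 in CYR61 cultures, against 1.11 and 1.05 in Vector cultures. That order rests on merged exon lengths of 7401 bases for IARS1 and 4165 bases for IARS2. In CPM, without length, IARS1 stood above IARS2 in every culture of both groups. The 3 pairs with a higher ratio were those of arginine, histidine and FARSA with FARS2. RARS1 over RARS2 was 7.55 and 7.18 in CYR61 cultures, against 4.19 and 4.94 in Vector cultures. HARS1 over HARS2 was 0.925 and 0.866 in CYR61 cultures, against 0.756 and 0.696 in Vector cultures, and neither gene was called. The pairs of valine, FARSB with FARS2, and EPRS1 with PARS2 overlapped.

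**Figure D4:**
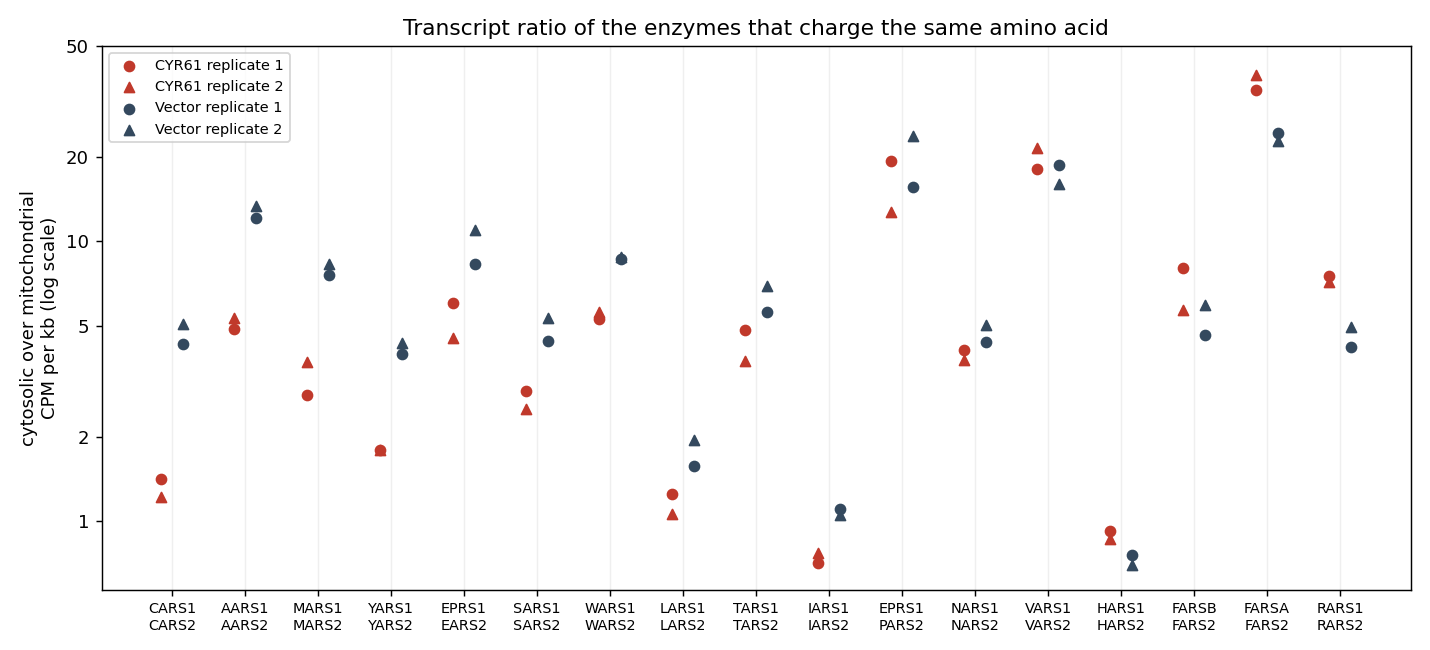
Ratio of cytosolic to mitochondrial CPM per kb for 17 same-amino-acid pairs on a log axis, a point per culture, CYR61 and Vector cultures in separate colours. The ratio is lower in CYR61 cultures for 11 pairs, among them cysteine at 1.42 and 1.22 in CYR61 cultures and 4.29 and 5.07 in Vector cultures, and higher for 3.

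Removing each library's trend on GC content raised the number of calls. In that fit 13.9% of all tested genes were lower and 15.8% higher, so its counts are read against larger shares. Of the 19 cytosolic enzymes 11 were then lower, adding TARS1 (-0.44), IARS1 (-0.33), EPRS1 (-0.37) and LARS1 (-0.27), and 5 higher, adding VARS1 (0.30) and HARS1 (0.26). Of the mitochondrial enzymes 8 were then higher, EARS2 (0.60) with YARS2 (0.45), LARS2 (0.40), SARS2 (0.37), AARS2 (0.36), CARS2 (0.34), IARS2 (0.21) and TARS2 (0.20), and 0 lower. In the same fit 39 of 78 mitochondrial ribosomal proteins were higher and 0 lower, so such a rise was not particular to the synthetases. The trend was fitted on the same 4 libraries and its error is not carried into these p-values. No called member changed direction.

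Several members share exon bases with a neighbour in GENCODE 29, and the sources used here do not give the libraries' strandedness. MARS1 shares 355 bases with DDIT3 on the opposite strand, which encodes a stress-response transcription factor and itself fell, with 8.33 and 9.15 CPM in CYR61 cultures, against 26.2 and 25.2 CPM in Vector cultures (log2 fold change -1.56, adjusted p 0.000617). The sum of both genes had a log2 ratio of -1.03, beside -0.99 for MARS1. VARS2 shares 1858 bases on its own strand with GTF2H4, so its value is uncertain, and their sum was 64.6 and 66.2 CPM in CYR61 cultures, against 63.4 and 60.7 CPM in Vector cultures. Sums with the opposite-strand neighbour gave 0.45 for KARS1 with TERF2IP and 0.40 for EARS2 with UBFD1. They gave -0.51 for WARS1 with WDR25 and -0.72 for YARS1 with S100PBP. TERF2IP (33.6 to 44.9 CPM), WDR25 (19.2 to 26.8 CPM) and S100PBP (15.5 to 20.3 CPM) lay far below their synthetases. Sums with these neighbours could therefore hardly have turned sign. HARS1 and HARS2 share 437 bases on opposite strands, and HARS2 also shares 152 bases on its own strand with ZMAT2, so both values are uncertain. Their sum was 158 and 156 CPM in CYR61 cultures, against 150.3 and 140.4 CPM in Vector cultures. SARS2 shares 349 bases with MRPS12 on the opposite strand, and the sum of both had a log2 ratio of 0.41.

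Some of these neighbours start back to back with the member. HARS1 and HARS2 start 85 bases apart on opposite strands, and their log2 fold changes were 0.23 and -0.08. SARS2 starts 181 or 191 bases from MRPS12, a mitochondrial ribosomal protein gene that rose (0.51, adjusted p 0.037) while SARS2 did not pass (0.26, adjusted p 0.314). KARS1 starts 108 bases from TERF2IP (0.28, adjusted p 0.245) and WARS1 158 bases from WDR25 (-0.26, adjusted p 0.394), where the synthetase was called and its neighbour was not.

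Genes that act beside the synthetases were read from lists. ATF4 itself had 153 and 177 CPM in CYR61 cultures, against 264 and 232 CPM in Vector cultures (-0.59, SE 0.12, adjusted p 0.0213). Of 24 tested genes that are ATF4 or its other known targets 20 fell and 1 rose, and their median was -1.06 on the log2 scale. Over all tested genes 4.56% fell and 1.83% rose. ASNS, which makes asparagine, had 49.4 and 43.0 CPM in CYR61 cultures, against 174.5 and 196 CPM in Vector cultures (-2.00, adjusted p 7.07e-05). PCK2, the mitochondrial phosphoenolpyruvate carboxykinase, had 30.4 and 39.8 CPM in CYR61 cultures, against 144 and 135 CPM in Vector cultures (-2.00, adjusted p 0.000103). These changes were larger in size than that of any synthetase. ATF5 was the gene that rose, with 22.7 and 26.1 CPM in CYR61 cultures, against 12.1 and 12.3 CPM in Vector cultures (1.00, adjusted p 0.00617). The synthetases and this list were both picked with earlier results of these data known, so the list is not independent evidence for them.

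The kinases that act on eIF2, with GCN1, gave 0 calls of 5 in the edgeR test, 0 by DESeq2 and 0 at an unadjusted p below 0.05 (median 0.09). EIF2AK4, the sensor of uncharged tRNA, had 79.9 and 77.7 CPM in CYR61 cultures, against 66.9 and 67.5 CPM in Vector cultures (0.23, adjusted p 0.279). The 6 cytosolic elongation factors, which deliver charged tRNA to the ribosome and move it along, likewise gave 0 calls by edgeR, 0 by DESeq2 and 0 at an unadjusted p below 0.05 (median -0.01). Of 8 genes for tRNA export, end processing and editing edgeR called 0 and DESeq2 called 1. That gene was ELAC2, which trims the 3′ end of tRNA precursors (0.41, edgeR adjusted p 0.0646). At an unadjusted p below 0.05, 2 of the 8 were higher and 1 lower, and the share of all tested genes at that cut was not counted.

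Other genes of mitochondrial translation were read in the same way. Of 9 mitochondrial translation factors edgeR and DESeq2 called 0, with 1 at an unadjusted p below 0.05 and a median of 0.21. Of 4 genes for the amidotransferase and for formylation of mitochondrial initiator tRNA both called 0, with 1, MTFMT (0.40, adjusted p 0.218), at an unadjusted p below 0.05. Of 78 mitochondrial ribosomal proteins 2 were called higher by edgeR and 0 lower, beside 1.83% of all tested genes called higher. DESeq2 called 3 higher and 0 lower, beside 356 higher and 589 lower over all genes. At an unadjusted p below 0.05, 24 were higher and 0 lower. The share of all tested genes at that unadjusted cut was not counted for any of these lists. Their median was 0.24, 74 of 78 lay above 0, and 48 of 78 had groups apart with CYR61 higher, beside 23.9% of all tested genes. The calls were MRPL15 (0.64, adjusted p 0.0167), lost without Vector 1 (0.142), and MRPS12, lost without Vector 1 (0.133), Vector 2 (0.236) or CYR61 2 (0.109). The mitochondrial synthetases had a median of 0.21 beside these lists.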

How the data were processed

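RNA of 4 HLE libraries was measured by sequencing. The authors deposited estimated counts per gene, 1 table per library, of which 11.2% to 12% of values were not whole. Per the submitters' processing notes Cuffdiff 1.3.0, Cufflinks 2.2.1 and TopHat2 2.1.1 were used with build hg38. Neither counter, annotation nor strandedness is stated (not given in the sources used here). Symbols were matched for 20228 and GENCODE 29 positions for 20212 of 20286 identifiers.

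Counts were rounded, filtered by filterByExpr, scaled by TMM and fitted with edgeR 4.0.16 in R 4.3.3 (glmQLFit, glmQLFTest) on group alone. P-values were adjusted by Benjamini-Hochberg over 12698 genes and the threshold was 0.05. SE is the absolute log2 fold change over the square root of F. Level per kb divides CPM by merged exon length. Groups that are apart share no CPM range.

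Members, lists and tests were chosen with earlier results of these data known. Named genes were all members, CCN1, up to 4 called genes of smallest adjusted p per list, or the 1 of smallest p, and neighbours sharing exons or start sites; AIMP1, EEF1E1, ATF4 and ATF5 were named after their values were seen. Alternatives were DESeq2 1.42.0, RLE, library size alone, no filter, the replicate number as a block, a GC trend removed (spline of 5 degrees of freedom) with and without the block, each library left out, and, added after seeing the data, crossed numbers and CCN1 left out of library sizes.

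On simulated counts for this comparison (12591 genes tested, 200 changed) edgeR recovered 54% of 1.5-fold, 82% of 2-fold and 98% of 4-fold changes, with 15 false calls. The simulated replicates carried no trend on GC content, unlike the real ones, so recovery and false calls in the real libraries may differ. Replicates differed by more than sampling noise (chi-square per degree of freedom 14.7 between CYR61 and 13.3 between Vector libraries).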

Additional observations from a re-analysis of the deposited data

How the results depend on the processing

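The fit on group alone called 579 genes lower and 232 higher, 7 cytosolic synthetases lower and 3 higher, 1 mitochondrial synthetase higher, and 4 list genes higher. Without the filter on low counts 1029 genes were lower, 648 higher, 8 cytosolic synthetases lower and 11 list genes higher. With DESeq2 356 genes were higher. With the GC trend removed 1766 genes were lower and 2006 higher, with 11 cytosolic lower, 5 cytosolic higher, 8 mitochondrial higher and 47 list genes higher. The GC trend removed with the replicate block gave 1436 lower, 1568 higher, 11 cytosolic lower, 5 cytosolic higher, 6 mitochondrial higher and 36 list genes higher.

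Equal replicate numbers share only a number in the labels, and deviations of same-numbered libraries had a Pearson r of -0.71 across genes. With the replicate block 338 genes were lower and 53 higher, 5 cytosolic synthetases lower, 0 cytosolic and 0 mitochondrial synthetases higher and 1 list gene higher. The calls lost were those of SARS1 (adjusted p 0.152), WARS1 (0.205), RARS1 (0.06), FARSA (0.22), KARS1 (0.281) and EARS2 (0.248), with log2 fold changes of 0.7 for RARS1 and unchanged to 2 decimals for the other 5. A block with crossed numbers, chosen after seeing the data, gave 2876 lower, 2748 higher, 11 cytosolic lower, 6 cytosolic higher, 9 mitochondrial higher and 70 list genes higher.

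Leaving out each library in turn gave 377 to 793 genes lower, 104 to 538 higher, 5 to 7 cytosolic lower, 1 to 2 cytosolic higher, 0 to 1 mitochondrial higher and 1 to 12 list genes higher. Log2 fold changes of 6 members, all between -0.07 and 0.25 on group alone, turned sign in 1 or more settings: FARSB without CYR61 1 (-0.003; up to 0.46 without another), NARS1 without CYR61 2 (0.07; down to -0.21), QARS1 without Vector 1 (0.01) or CYR61 1 (0.02; down to -0.13), PARS2 with the GC trend removed (0.02, also 0.02 with the block), without Vector 1 (0.17) or CYR61 1 (0.14; down to -0.21), RARS2 with the GC trend removed (-0.03, with the block -0.04), without Vector 1 (-0.03) or CYR61 1 (-0.19; up to 0.2), and VARS2 with library size alone (-0.0004). The cause was not tested. Over 13 alternatives of 35 members, 379 values kept direction and side of the threshold, 41 gained and 22 lost the call, and 13 turned sign. In the simulation, which had no GC trend, changes of about 1.5-fold were near what the test could call with 2 libraries a group.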
